A study of Mus musculus with 8 samples.

Results

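The collagen genes and 11 further extracellular matrix genes were followed through cultures of mouse cortical neurons exposed to hemin, 4-OI or both. The members were every gene in the expression table whose symbol names a collagen chain (44 genes) together with Fn1, Sparc, Dcn, Lum, Fbn1, Postn, Thbs1, Tnc, Timp1, Mmp2 and Lox, which made 55 of 19417 genes. The cultures came from C57BL/6 mice, and no genetic change is named for any group. Each group was treated for 24 h: with the vehicle DMSO, with 10 µM 4-OI, with 50 µM hemin, or with 50 µM hemin and 10 µM 4-OI together, and each had 2 libraries (8 in all). Hemin is the oxidised iron porphyrin set free when hemoglobin breaks down, as after bleeding into the brain, and 4-OI is 4-octyl itaconate, a cell-permeable itaconate derivative used to activate the antioxidant factor NRF2. The age of the animals at dissection and the days in culture were not given in the sources used here. Nothing in the labels says that the 2 libraries of a group came from separate cultures, so p-values measure the spread between these libraries, which may be technical.

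Collagens are helical proteins of the extracellular matrix. Fibrillar collagens build fibres, collagen IV and laminin form the sheet of basement membranes, and the FACIT collagens sit on the surface of fibrils. In the brain these proteins are concentrated around vessels and in the meninges, where fibroblasts, mural cells and endothelial cells make them, while the matrix between neurons is rich in hyaluronan, lecticans and tenascin-R instead. Matricellular glycoproteins such as SPARC and thrombospondin 1 bind matrix and growth factors, and astrocytes are a known source of both.

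Matrix transcripts were present in the cultures without hemin and rose together with it. The members summed to 207 and 198 FPKM under DMSO, to 206 and 233 under 4-OI, to 789 and 496 under hemin, and to 465 and 469 under hemin and 4-OI. FPKM scales the fragments of a transcript by its length and by the library's total, so levels of different genes can be set side by side. All 4 libraries with hemin lay above all 4 without it, and the first hemin library lay far above the other 3. Sparc alone supplied a large part of these sums, and without it the members came to 104 and 102, 111 and 122, 370 and 260, and 241 and 245 FPKM in the same order. The 44 collagens summed to 73.7 and 70.6 FPKM under DMSO and to 244 and 163 under hemin.

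The libraries differed in ways that bear on every value below. Their FPKM totals were unequal, at 429474 and 377465 under hemin against 368973 and 367783 under DMSO. As a share of these totals the members came to 0.1836% and 0.1315% under hemin and to 0.05619% and 0.05383% under DMSO. The estimated depth was 8.5 to 10.4 M fragments, and 38 members reached an FPKM of 1 in at least 2 of the 8 libraries and were tested. Among the 38, the first hemin library exceeded the second for 33 members, by a median of 0.35 in log2(FPKM + 1), against a median of 0.02 for all tested genes. In the DMSO group the first library was the higher one for 20 members (median 0.01), in the 4-OI group for 13 (median -0.12), and in the combined group for 16. Results with hemin are therefore given also without the first hemin library where that ended a call, turned a direction or moved a value by over 1.5 times, and for some others. In the plot of single libraries, the median distance of the 38 members from their DMSO mean was 1.59 in the first hemin library and 1.11 in the second, 0.98 and 1.02 in the combined group, and 0.04 and 0.16 under 4-OI.

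**Figure D1:**
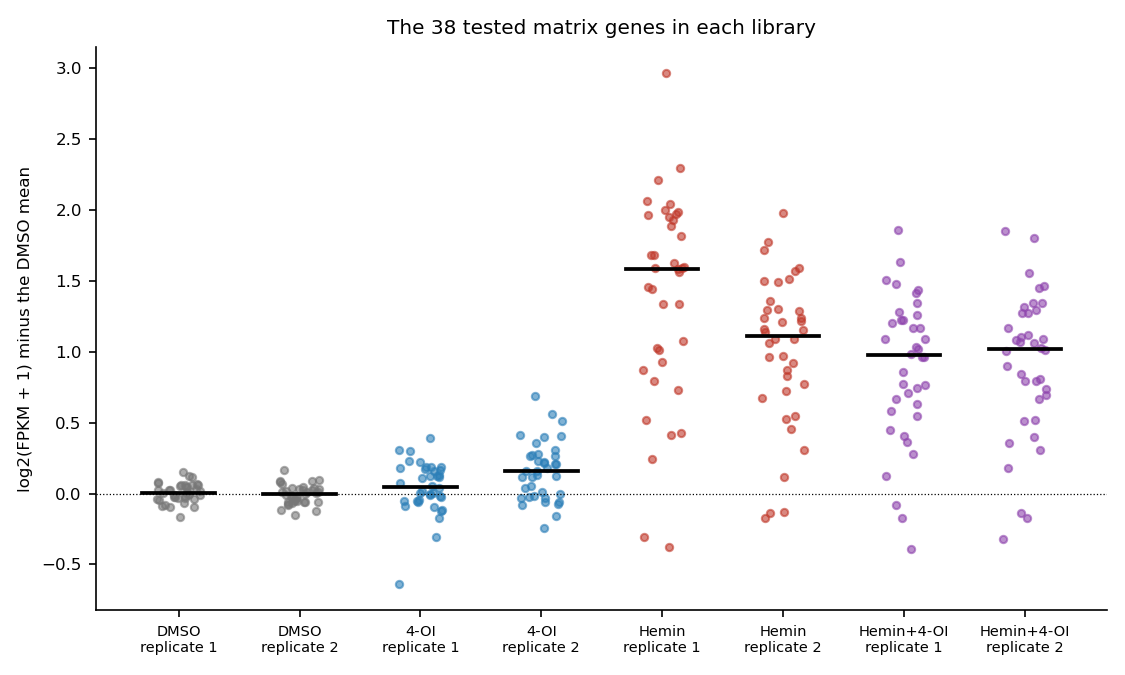
Each point is 1 of the 38 tested matrix genes, placed by its log2(FPKM + 1) in a library minus its mean over the DMSO libraries (vertical axis, log2 units), with libraries along the horizontal axis and a bar at the median of each. The median is 1.59 and 1.11 in the hemin libraries, 0.98 and 1.02 under hemin and 4-OI, and 0.04 and 0.16 under 4-OI alone.

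The cultures were labelled as cortical neurons, and markers of other cell types were measured beside the matrix genes. Tubb3, the neuronal beta-tubulin, stood at 1179 FPKM in each DMSO library and dropped to 66.9 and 63.6 under hemin, and Map2, a dendritic microtubule protein, at 209 and 204 and then at 124 and 190 FPKM. The defining markers of cells known to make collagen read between 0 and 2 FPKM under DMSO, while broader markers of the same lists read higher, such as S100a6 at 18.7 and 17.0 and Tagln at 9.36 and 11.1. Foxc1, a transcription factor of the meninges, read 0.52 and 0.18 FPKM under DMSO and 1.07 and 1.08 under hemin. Twist1, a mesenchymal factor, went from 0.06 and 0.13 to 0.69 and 0.78 FPKM, and Tbx18, a factor of mural and meningeal cells, from 0.06 and 0.18 to 0.53 and 0.59. Kcnj8, a potassium channel of pericytes, was listed at 0 in all 4 libraries without hemin and at 0.33 and 0.19 FPKM with it. Pecam1, an adhesion receptor of endothelium, rose from 0.33 and 0.16 to 6.61 and 10.3 FPKM, while the endothelial cadherin Cdh5 read 0.10 and 0.03 and then 0.52 and 0.33. Gfap, the filament protein of astrocytes, rose from 52.2 and 50.1 to 368 and 125 FPKM. Other genes of the fibroblast, mural and endothelial lists at 0 in at least 1 library were Foxc2, Twist2, Dpt, Ranbp3l, Des, Cldn5, Tek and Tie1.

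Summed over whole marker lists and divided by the DMSO mean, the 16 fibroblast and meningeal markers stood at 5.20 and 2.77 in the hemin libraries and at 2.22 and 2.36 under hemin and 4-OI. S100a6, a calcium-binding protein of many cell types, supplied much of that sum, with 123 and 48.5 FPKM under hemin, and the other 15 stood at 2.71 and 2.86 and then 2.29 and 2.64, nearly even between the hemin libraries. The 10 mural markers stood at 3.21 and 1.96, and then 1.96 and 1.88. The matrix genes themselves stood at 3.89 and 2.45, and then 2.30 and 2.31. The 8 astrocyte and radial glia markers stood at 2.85 and 1.37 and then 1.32 and 1.34. Fabp7 supplied much of that sum, with 718 and 389 FPKM under hemin. The other 7 stood at 5.43 and 2.3 and then 2.12 and 2.14. The 7 microglia and macrophage markers stood at 4.84 and 2.04 and then 1.92 and 1.81, and the 6 oligodendrocyte markers at 3.52 and 1.75 and then 1.76 and 1.82. Of the whole lists only the 7 endothelial and the 8 neuronal markers were higher in the second hemin library than in the first. The endothelial list stood at 8.88 and 13.9. Pecam1 supplied most of that sum, and the other 6 stood at 3.57 and 5.65. The whole endothelial list summed to only 1.21 and 0.95 FPKM under DMSO. The 8 neuronal markers lay below the DMSO mean instead, at 0.252 and 0.325 under hemin and 0.342 and 0.338 with both compounds. Without Tubb3 the other 7 stood at 0.448 and 0.599 and then 0.62 and 0.61. Of the tested markers, 7 of 7 fibroblast and meningeal, 5 of 5 mural, 2 of 2 endothelial, 7 of 8 astrocyte, 5 of 6 microglia and 3 of 5 oligodendrocyte genes rose, and 6 of 8 neuronal genes fell (without the first hemin library 6, 4, 2, 7, 3 and 2 rose and 6 fell), beside 38.7% of all 13746 tested genes that rose and 22.6% that fell (limma, adjusted p under 0.05). Of these rises, those of Foxc1, Aldh1a2, Crabp2, Cnn1, Pecam1, Tek, Tmem119 and Sox10 had to be seen for the gene to be tested at all, since these genes reached an FPKM of 1 only in libraries with hemin. The part of these cell types in the matrix results was not tested, and fewer cells of a type and less RNA per cell cannot be told apart in such bulk libraries.

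**Figure D2:**
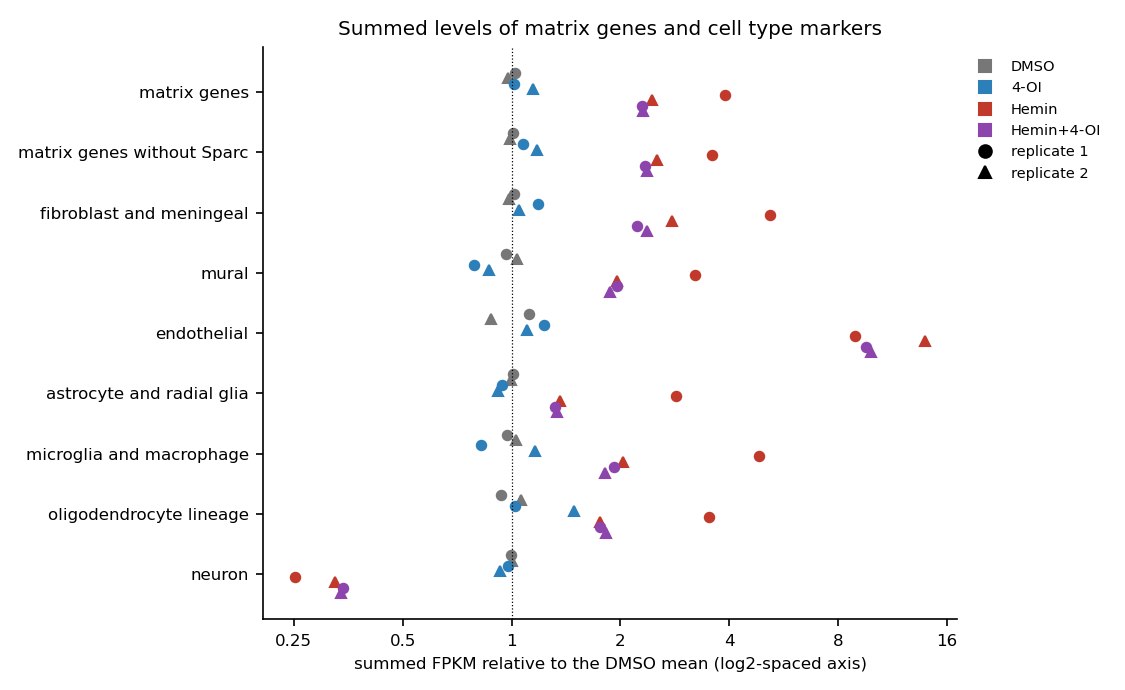
Summed FPKM of the matrix genes and of each cell type marker list in each library, divided by the mean of the DMSO libraries (horizontal axis, log2-spaced), with colour for the group and shape for the replicate. The matrix genes lie at 3.89 and 2.45 in the hemin libraries, and the fibroblast and meningeal list at 5.20 and 2.77 (2.71 and 2.86 without S100a6, not drawn). The neuron list lies at 0.252 and 0.325 (0.448 and 0.599 without Tubb3, not drawn).

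Hemin against DMSO asks how the cultures respond to hemin. Of the 38 tested members 33 rose and 0 fell, and the 5 others were Col6a1, Col26a1, Col11a2, Col22a1 and Col25a1. The background was 38.7% of tested genes higher and 22.6% lower (limma, adjusted p under 0.05). The median log2 fold change of the members was 1.31, with a range of -0.22 to 2.37, against 0.19 for all tested genes. The count is bound to the filter: 7 of the 38 (Col2a1, Col6a2, Col8a2, Col10a1, Col22a1, Col23a1 and Col27a1) reached an FPKM of 1 only in libraries with hemin, and 6 of those 7 were among the rises. Over all 55 members, with no filter, both hemin libraries lay above both DMSO libraries for 46 (83.6%) and below them for 3 (5.45%), where 45% and 23.5% of the 19205 genes detected anywhere did so. The 3 below were Col11a2, Col14a1 and Col19a1. Without the first hemin library 31 of 37 tested members rose, with a median of 1.14. Median-of-ratios scaling moved the median of all genes to -0.015 and that of the members to 1.13, with 32 members higher, and quantile normalization moved them to -0.013 and 0.94, with 27 members higher. The calls lost under quantile normalization were those of Col6a2, Col7a1, Col8a1, Col8a2, Col23a1 and Lox. Of all calls in this comparison 63.1% were rises, 48.8% after median-of-ratios scaling and 47.4% after quantile normalization.

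**Figure D3:**
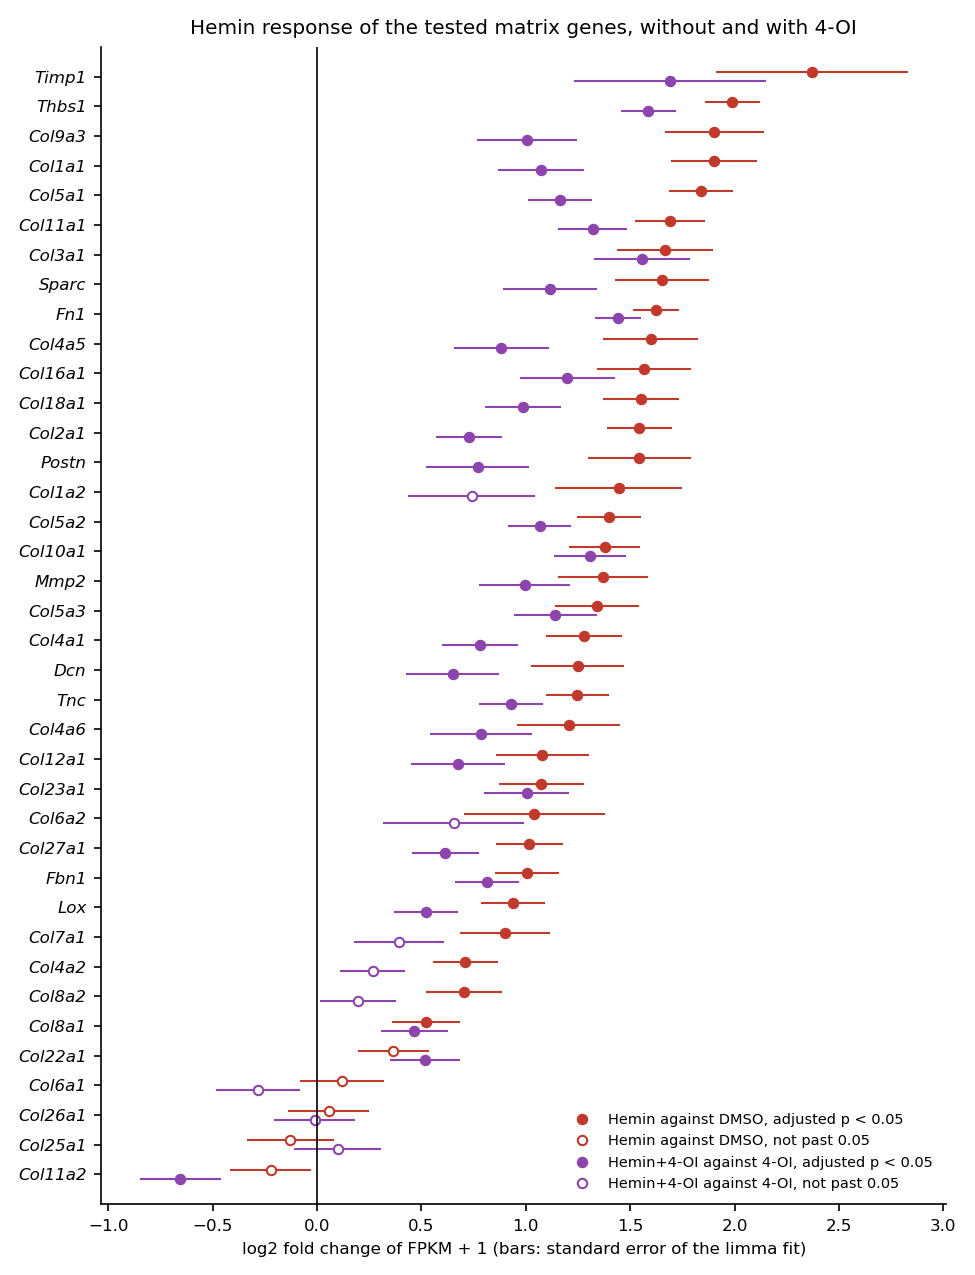
Log2 fold change of FPKM + 1 (horizontal axis) for the 38 tested matrix genes, in hemin against DMSO (red) and in hemin and 4-OI against 4-OI alone (purple), with bars for the standard error of the limma fit and filled points for an adjusted p under 0.05. In red, 33 genes are filled and lie right of 0; in purple, 29 are filled to the right and Col11a2 is filled to the left.

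All 6 adhesive and matricellular glycoproteins rose, and Sparc had the highest level of all members. Sparc, a secreted collagen-binding glycoprotein, stood at 103 and 96.0 FPKM under DMSO, 95.4 and 111 under 4-OI, 419 and 236 under hemin, and 224 and 224 under both. The 4 libraries with hemin lay clear of the 4 without it, and the first hemin library was well above the rest. In hemin against DMSO its log2 fold change was 1.65 ± 0.225 (SE; limma adjusted p = 0.00045), and without the first hemin library it was 1.24.

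Fn1, fibronectin, a ligand of integrins, was at 7.98 and 8.39 FPKM under DMSO, 8.29 and 9.27 under 4-OI, 28.5 and 26.2 under hemin, and 25.1 and 25.9 under both. Here the hemin libraries differed little from each other, and the log2 fold change was 1.63 ± 0.11 (SE; limma adjusted p = 2.68e-05). Thbs1, thrombospondin 1, an adhesive glycoprotein that can activate latent TGF-beta, read 4.06 and 4.29 FPKM under DMSO, 4.65 and 5.88 under 4-OI, 19.7 and 19.4 under hemin, and 17.7 and 17.7 under both. It was the most even of the 8 largest rises, at 1.99 ± 0.13 (SE; limma adjusted p = 2.45e-05), and the first hemin library exceeded the second by 0.02 in log2(FPKM + 1). Tnc, tenascin-C, an adhesion-modulating hexameric glycoprotein of astrocytes and injured tissue, went from 5.87 and 6.27 to 16.9 and 14.7 FPKM. With 4-OI alone it read 7.74 and 5.79 FPKM and with both compounds 13.3 and 14.0, and the log2 fold change with hemin was 1.25 ± 0.15 (SE; limma adjusted p = 0.000258). Postn, periostin, a matricellular protein of fibroblasts, rose by 1.54 ± 0.25 and Fbn1, fibrillin 1, the backbone of microfibrils, by 1.01 ± 0.15 on the log2 scale (SE; limma adjusted p = 0.000995 and 0.000768).

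Postn is one of the members with a TATA box close to its start in the reference promoters. RefSeq windows of the GRCm38.p6 build (250 bases before and 50 after each annotated start) were available for 40 of the 55 members, 45 windows in all. Stretches are shown for Postn, for Col10a1, the tested member with the lowest DMSO level, and for the partner chains Col11a1 and Col11a2, of which the first rose with hemin, with the motif found in capitals.
Postn, plus strand, chr3:54360957-54361106, TATA box at bases 26 to 21 before the start: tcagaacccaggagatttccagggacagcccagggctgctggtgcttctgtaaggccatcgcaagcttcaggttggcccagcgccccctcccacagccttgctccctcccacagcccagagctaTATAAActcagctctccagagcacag
Col10a1, plus strand, chr10:34389831-34389980, TATA box at bases 32 to 27 before the start: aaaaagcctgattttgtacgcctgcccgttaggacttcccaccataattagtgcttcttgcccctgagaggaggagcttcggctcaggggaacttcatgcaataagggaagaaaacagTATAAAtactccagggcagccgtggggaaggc
Col11a1, plus strand, chr3:114030390-114030539, CCAAT box on the reverse strand at bases 79 to 75 before the start: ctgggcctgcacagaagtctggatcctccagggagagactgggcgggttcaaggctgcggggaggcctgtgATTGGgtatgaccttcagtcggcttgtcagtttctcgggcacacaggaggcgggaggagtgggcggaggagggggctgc
Col11a2, plus strand, chr17:34038988-34039137, TATA box at bases 143 to 138 before the start: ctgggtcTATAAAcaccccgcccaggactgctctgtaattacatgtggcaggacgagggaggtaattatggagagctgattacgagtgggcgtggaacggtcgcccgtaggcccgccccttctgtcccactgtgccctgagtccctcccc

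Across the 45 member windows, read on both strands, TATAAA stood in 8 (17.8%, against 13.6% of all 32851 windows in the table), CCAAT in 15 (33.3%, against 37.4%), the core of the antioxidant response element TGACNNNGC, which NRF2 binds, in 8 (17.8%, against 12.4%), and the AP-1 motif TGANTCA in 1 (2.22%, against 7.81%). The single AP-1 match lay in the window of Col6a1, one of the members that did not pass the test. The 8 with the antioxidant core belonged to Col13a1, Col24a1, Col4a2, Col6a2, Col6a5, Col7a1, Col9a2 and Postn. The AP-1 and antioxidant motifs can share letters. These are matches of letters in the reference, and no deposited measurement here bears on binding at them.

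**Figure D4:**
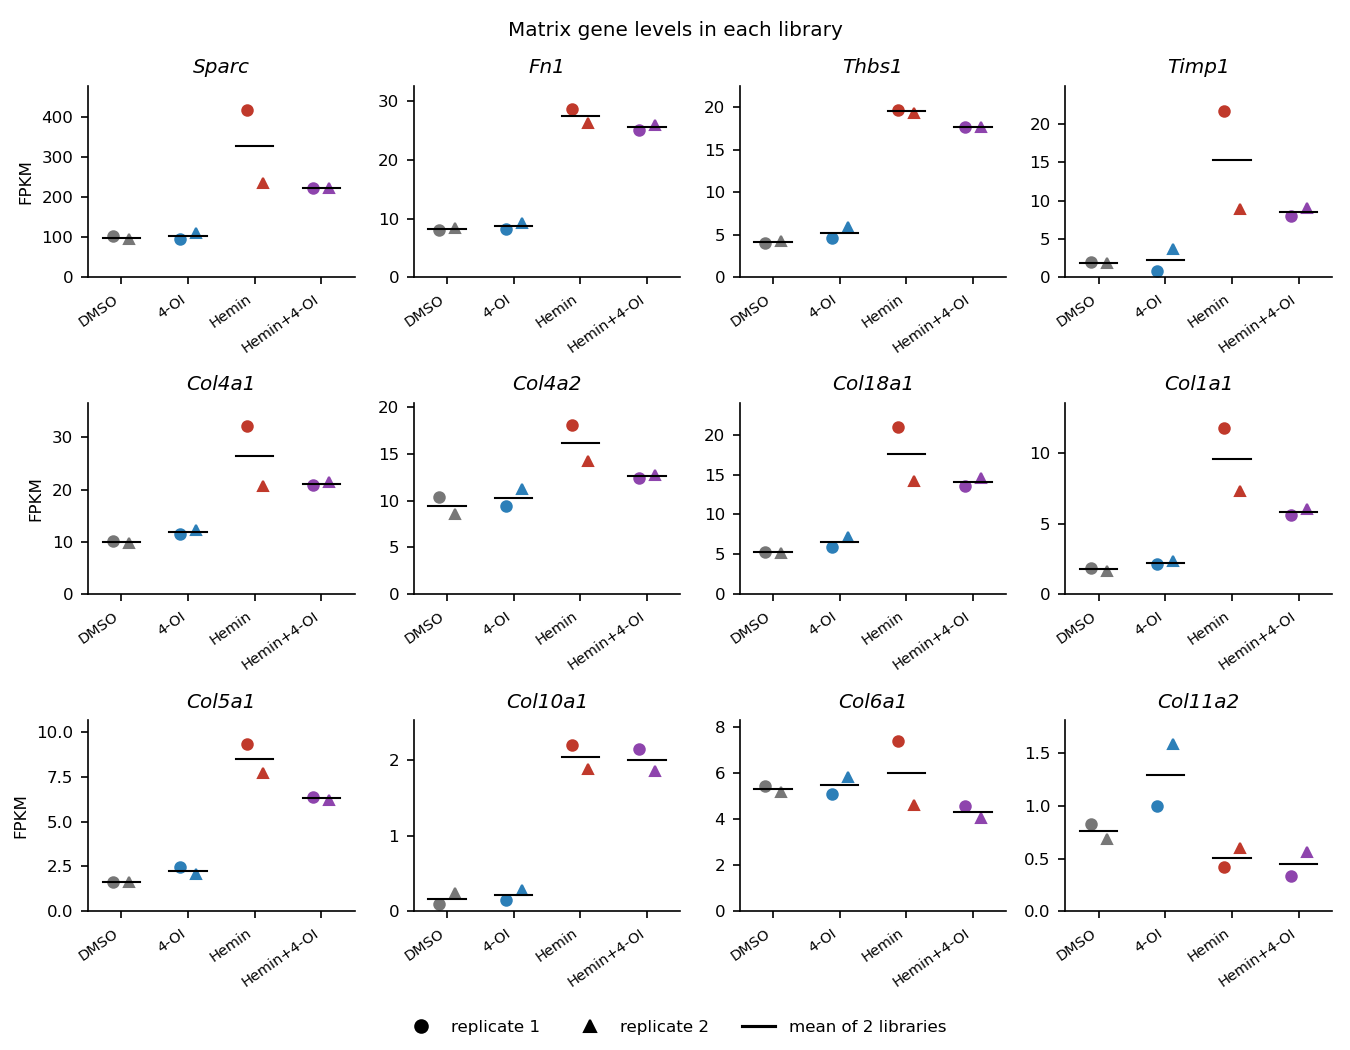
FPKM of 12 matrix genes in each library (vertical axes, each from 0), by group, with circles for replicate 1, triangles for replicate 2 and a line at the mean of 2 libraries. Sparc, Fn1, Thbs1, Timp1 and the collagen panels down to Col10a1 are higher in all 4 libraries with hemin than in all 4 without it; Col6a1 overlaps, and Col11a2 is lower with hemin.

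Of the 11 fibrillar collagens 10 were tested and 9 rose, with a median log2 fold change of 1.49. Col5a2, a collagen V chain that helps start fibrils, had the highest mean level of them, at 4.02 and 3.70 FPKM under DMSO, 4.28 and 5.0 under 4-OI, 13.3 and 10.5 under hemin, and 10.8 and 10.8 under both (1.40 ± 0.15 SE in hemin against DMSO; limma adjusted p = 0.00016). Its partner Col5a1 was at 1.63 and 1.66 under DMSO, 2.47 and 2.06 under 4-OI, 9.30 and 7.68 under hemin, and 6.38 and 6.22 FPKM under both (1.84 ± 0.15 SE; limma adjusted p = 5.4e-05). For both chains the groups with and without hemin were far apart, and the combined mean lay between those of DMSO and hemin, although for Col5a2 the second hemin library lay below both combined libraries.

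Col1a1, the main chain of collagen I, stood at 1.88 and 1.67 FPKM under DMSO, 2.13 and 2.36 under 4-OI, 11.8 and 7.36 under hemin, and 5.62 and 6.03 under both. The hemin mean was 5.41 times the DMSO mean, and the log2 fold change was 1.90 ± 0.21 (SE; limma adjusted p = 0.000161). Col3a1, the chain of collagen III, which accompanies collagen I in soft tissue, read 1.97 and 2.01 FPKM under DMSO, 1.65 and 1.87 under 4-OI, 11.3 and 6.32 under hemin, and 6.97 and 7.24 under both (1.67 ± 0.23 SE; limma adjusted p = 0.000477). The second hemin library of Col3a1 lay below both combined libraries, while for Col1a1 it lay above them. Col11a1, a chain of the cartilage type collagen XI that is also made outside cartilage, was at 2.00 and 1.99 FPKM under DMSO, 2.15 and 1.93 under 4-OI, 10.1 and 7.45 under hemin, and 6.59 and 6.58 under both (1.69 ± 0.17 SE; limma adjusted p = 0.000102).

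The other collagen I chain, Col1a2, depended more on 1 library. It read 2.43 and 2.50 FPKM under DMSO, 2.24 and 2.93 under 4-OI, 12.6 and 5.56 under hemin, and 4.51 and 5.45 under both. Its log2 fold change in hemin against DMSO was 1.44 ± 0.30 (SE; limma adjusted p = 0.00366), and 0.92 without the first hemin library (limma adjusted p = 0.00184). Its reference promoter holds a CCAAT box at bases 109 to 105 before the start, shown here with the bases around it because the stretch beyond overlaps an annotated exon.
Col1a2, plus strand, chr6:4505499-4505523: aagaatggaaCCAATttaagaagcc

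Col2a1, the collagen II chain, known as the collagen of cartilage, was near the limit of detection without hemin, at 0.24 and 0.28 FPKM under DMSO and 0.48 and 0.61 under 4-OI. With hemin it read 2.80 and 2.55, and with both compounds 1.58 and 1.53 FPKM. The groups did not overlap, and the hemin mean was 10.3 times that of DMSO, while the tested change, on log2(FPKM + 1), was 1.54 ± 0.16 (SE; limma adjusted p = 0.000121). By the depth estimate its level corresponded to about 12 fragments in the lowest library without hemin and 145 in the highest. Col5a3, a further collagen V chain, and Col27a1, of collagen XXVII, rose by 1.34 and 1.02.

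Col11a2, the partner of Col11a1 in collagen XI, was the fibrillar chain that went the other way. It read 0.83 and 0.69 FPKM under DMSO, 1.00 and 1.59 under 4-OI, 0.42 and 0.60 under hemin, and 0.34 and 0.56 under both. The libraries with hemin all lay below those without it, but at these low levels hemin against DMSO gave -0.22 ± 0.19 (SE; limma adjusted p = 0.344). Without the first hemin library the change of Col11a2 was -0.14. With quantile normalization Col11a2 passed the threshold, at -0.79 (limma adjusted p = 0.00654). In hemin and 4-OI against 4-OI alone it fell by 0.655 ± 0.195 (SE; limma adjusted p = 0.0199), and without the first combined library that call was lost (adjusted p = 0.112). Col24a1, the remaining fibrillar chain, stayed between 0.01 and 0.13 FPKM and was not tested.

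Of the 6 collagen IV genes 4 were tested and all 4 rose. Col4a1 and Col4a2 encode the chains of the common basement membrane collagen. Col4a1 stood at 10.2 and 9.84 FPKM under DMSO, 11.5 and 12.2 under 4-OI, 32.1 and 20.6 under hemin, and 20.8 and 21.5 under both (1.28 ± 0.18 SE; limma adjusted p = 0.000543). Col4a2 read 10.4 and 8.56 under DMSO, 9.44 and 11.2 under 4-OI, 18.1 and 14.3 under hemin, and 12.4 and 12.8 FPKM under both, and its log2 fold change in hemin against DMSO was 0.71 ± 0.155 (SE; limma adjusted p = 0.00449). Both chains were at about the same level without hemin, and Col4a1 was the higher one in every library with it. Without the first hemin library the changes were 0.97 and 0.55.

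These chains start head to head in the reference: on chromosome 8 of GRCm38.p6 the start of Col4a1 (minus strand, 11312826) lies 21 bases from that of Col4a2 (plus strand, 11312805). The ratio of Col4a1 to Col4a2 was 0.982 and 1.15 under DMSO, 1.22 and 1.09 under 4-OI, 1.78 and 1.45 under hemin, and 1.67 and 1.68 under both, so the 4 libraries with hemin lay above the 4 without it. The pair Col4a5 and Col4a6, minor basement membrane chains whose starts on chromosome X lie 1343 bases apart, kept ratios that overlapped: 2.46 and 2.00 under DMSO, 3.36 and 2.33 under 4-OI, 2.45 and 2.61 under hemin, 2.64 and 2.48 under both. Their levels rose by 1.60 ± 0.23 and 1.21 ± 0.25 (SE; limma adjusted p = 0.000562 and 0.0032). The 4 chain ratios were chosen with the values known, and no test was made of them.

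**Figure D5:**
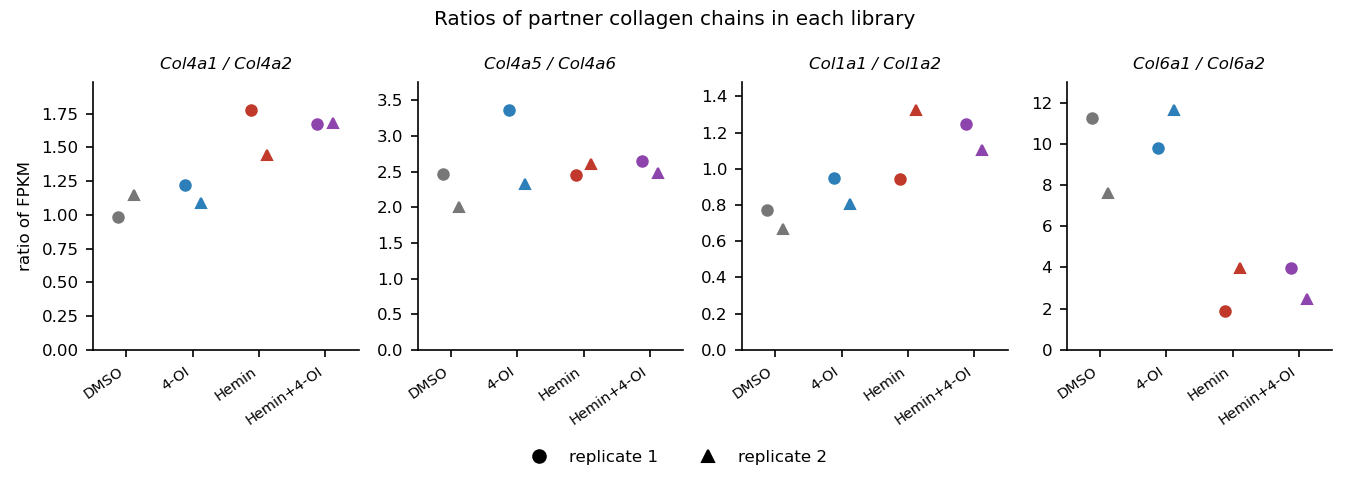
Ratio of the FPKM of partner chains (vertical axes, no unit) in each library, by group, with circles for replicate 1 and triangles for replicate 2. Col4a1 to Col4a2 runs from 0.982 to 1.22 without hemin and from 1.45 to 1.78 with it, Col6a1 to Col6a2 runs from 7.62 to 11.6 without hemin and from 1.90 to 3.98 with it, and the other pairs overlap between groups.

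Collagen VI, a beaded microfibril collagen that surrounds many cell types, showed the widest split between partner chains among the 4 ratios. Col6a1 read 5.41 and 5.18 FPKM under DMSO, 5.10 and 5.82 under 4-OI, 7.37 and 4.59 under hemin, and 4.58 and 4.04 under both. The groups overlapped, and hemin against DMSO gave 0.12 ± 0.20 (SE; limma adjusted p = 0.619). That value was -0.17 without the first hemin library and 0.41, past the threshold (limma adjusted p = 0.0302), without the second, and it was below 0 with median-of-ratios scaling (-0.08) and quantile normalization (-0.16).

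Col6a2 stood at 0.48 and 0.68 FPKM under DMSO, 0.52 and 0.50 under 4-OI, 3.87 and 1.16 under hemin, and 1.15 and 1.63 under both. All libraries with hemin lay above all without it, by 1.04 ± 0.34 (SE; limma adjusted p = 0.0261) in hemin against DMSO, but without the first hemin library the change was 0.45 and no longer passed (limma adjusted p = 0.0749), and the call was also lost without either DMSO library. The ratio of Col6a1 to Col6a2 was 11.3 and 7.62 under DMSO, 9.81 and 11.6 under 4-OI, 1.90 and 3.96 under hemin, and 3.98 and 2.48 under both. Col6a3, the chain that completes the common molecule, read 0.31 and 0.32 FPKM under DMSO and 0.87 and 0.53 under hemin and was below the filter. Col6a4, Col6a5 and Col6a6 never exceeded 0.18 FPKM. The AP-1 match of Col6a1 lies in a stretch that overlaps an annotated exon of the gene, at bases 90 to 84 before the RefSeq start, and is shown with the bases around it.
Col6a1, minus strand, chr10:76726118-76726144: gctgatgctgTGACTCActcagctttg

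Among the FACIT collagens, which decorate fibrils, 4 of 9 were tested and 3 rose. Col9a3, a chain of collagen IX, read 2.04 and 2.48 FPKM under DMSO, 2.69 and 2.55 under 4-OI, 14.9 and 8.28 under hemin, and 6.5 and 6.04 under both. It rose by 1.90 ± 0.24 under hemin (SE; limma adjusted p = 0.000299), and its combined libraries lay below both hemin libraries. Its partners did not reach the filter: Col9a1 stayed at or below 0.71 FPKM and Col9a2 at or below 0.53. Col16a1 and Col12a1, which link fibrils to their surroundings, rose by 1.57 ± 0.23 and 1.08 ± 0.22 (SE; limma adjusted p = 0.000614 and 0.00345), and Col12a1 gave 0.72 without the first hemin library. Col22a1, known from tissue junctions, did not pass in hemin against DMSO (0.37 ± 0.17, SE; limma adjusted p = 0.0893) and did in hemin and 4-OI against 4-OI (0.52 ± 0.17, SE; limma adjusted p = 0.0287), a call lost after median-of-ratios (0.43, adjusted p = 0.0553) and quantile scaling (0.09, adjusted p = 0.663) and without any single DMSO, 4-OI or combined library (adjusted p = 0.0529 to 0.15). Col20a1 had 2.51 FPKM in the first hemin library and 0.78 in the second, just outside the filter, and Col14a1 and Col19a1 stayed below 1 FPKM and were lower in both hemin libraries than in both DMSO libraries.

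Col18a1, the multiplexin of basement membranes whose fragment is endostatin, stood at 5.33 and 5.17 FPKM under DMSO, 5.99 and 7.24 under 4-OI, 21.0 and 14.2 under hemin, and 13.6 and 14.5 under both. The rise with hemin was 1.55 ± 0.18 (SE; limma adjusted p = 0.000222). The other multiplexin, Col15a1, ranged from 0.13 to 0.55 FPKM with overlapping groups and was not tested. Of the membrane-spanning collagens, Col23a1 had the highest mean over the 8 libraries, through those with hemin, at 0.90 and 0.72 FPKM under DMSO, 0.80 and 0.78 under 4-OI, 2.14 and 3.62 under hemin, and 2.53 and 2.65 under both. It rose by 1.08 ± 0.205 (SE; limma adjusted p = 0.00235), and of the tested members it had the lowest difference of the first hemin library minus the second, -0.56 in log2(FPKM + 1). Col25a1, a collagen of neurons, was the higher one in each library without hemin and gave -0.13 ± 0.21 (SE; limma adjusted p = 0.611) with groups that overlapped, and turned to 0.12 without the first hemin library.

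In the class of collagens VII, VIII, X, XXVI and XXVIII, 4 of the 5 tested genes rose. Col26a1 had the highest level of the class and did not pass, at 4.76 and 5.16 FPKM under DMSO, 5.68 and 4.94 under 4-OI, 6.06 and 4.44 under hemin, and 6.21 and 4.41 under both (0.06 ± 0.19, SE; limma adjusted p = 0.812). The libraries of a group differed by more than the group means did. Col7a1, of anchoring fibrils, rose by 0.90 ± 0.215 (SE; limma adjusted p = 0.00684), while Col8a1 and Col8a2, network collagens of vessel walls, rose by 0.52 ± 0.16 and 0.70 ± 0.18 (SE; limma adjusted p = 0.0216 and 0.0101). Col8a1 lost its call under TPM, median-of-ratios and quantile scaling and without either DMSO library, and Col8a2 under quantile normalization and without the second DMSO library. Without the first hemin library Col8a2 fell below the filter and was not tested.

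Col10a1, known as the collagen of hypertrophic cartilage, read 0.10 and 0.24 FPKM under DMSO, 0.15 and 0.28 under 4-OI, 2.20 and 1.88 under hemin, and 2.15 and 1.86 under both. The hemin mean was 12 times the DMSO mean, and the tested change was 1.38 ± 0.17 (SE; limma adjusted p = 0.000289), with an estimated 3 fragments behind the lowest value and 72 behind the highest. Col10a1 lies within the span of another gene, Nt5dc1, in the reference, and Nt5dc1 itself read 0.37 and 0.43 FPKM under DMSO, 0.38 and 0.37 under 4-OI, 2.60 and 2.57 under hemin, and 2.25 and 1.54 under both. Whether the counting used strand is not given in the sources used here, so the level of Col10a1 is uncertain to the extent that fragments of Nt5dc1 were assigned to it.

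The matrix enzymes and their inhibitor all rose. Mmp2, the gelatinase that cleaves denatured collagen and collagen IV, stood at 4.09 and 3.56 FPKM under DMSO, 3.53 and 4.81 under 4-OI, 14.4 and 9.04 under hemin, and 9.25 and 9.18 under both (1.37 ± 0.22 SE; limma adjusted p = 0.000951). Lox, which cross-links collagen and elastin, read 1.08 and 0.92 under DMSO and 3.02 and 2.65 FPKM under hemin (0.94 ± 0.15 SE; limma adjusted p = 0.00113). Timp1, a secreted inhibitor of matrix metalloproteinases, had the largest log2 fold change of FPKM + 1 among the tested members, ahead of Thbs1, which exceeded it without the first hemin library (1.98 against 1.78). By the ratio of mean FPKM it came to 8.05, below Col10a1 and Col2a1. It read 1.96 and 1.84 FPKM under DMSO, 0.86 and 3.67 under 4-OI, 21.7 and 8.93 under hemin, and 7.98 and 9.10 under both, so both the 4-OI and the hemin libraries differed widely among themselves. The change with hemin was 2.37 ± 0.46 (SE; limma adjusted p = 0.00249) and 1.78 without the first hemin library (limma adjusted p = 0.00558). Timp1 lies within the span of Syn1, a neuronal gene that went from 89.6 and 96.0 FPKM under DMSO to 25.9 and 38.7 under hemin. Dcn, decorin, a small proteoglycan that binds fibrils, read 0.75 and 1.21 FPKM under DMSO, 0.59 and 1.30 under 4-OI, 3.97 and 3.39 under hemin, and 2.21 and 1.8 under both (1.25 ± 0.22 SE; limma adjusted p = 0.00173). Lum, lumican, of the same family, was just outside the filter at 1.29 and 0.87 FPKM under hemin.

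The other 17 members were not tested, and 5 of them (Col6a3, Col9a2, Col13a1, Col20a1 and Lum) passed in hemin against DMSO when the filter was dropped, with log2 fold changes of 0.36, 0.38, 0.18, 1.08 and 0.56 (limma adjusted p = 0.0341, 0.0221, 0.0264, 0.0233 and 0.0147). In that fit 6044 of all 19205 genes were higher, so 5 of 17 was close to the share over all genes. Col13a1, a membrane collagen, was listed at 0 in all 4 libraries without hemin and reached 0.16 FPKM at most. Col17a1, of hemidesmosomes, stayed at or below 0.13, and Col4a3 and Col28a1 at or below 0.19 FPKM.

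Genes that act on collagen or stand beside it in the matrix were examined as lists. For collagen folding, modification and processing, 20 of 25 tested genes rose and 1 fell, with a median of 1.04. Serpinh1, the collagen chaperone HSP47, went from 23.6 and 23.8 FPKM to 125 and 70.6 (log2 fold change 1.95), Plod2, a lysyl hydroxylase, from 5.71 and 5.67 to 19.4 and 20.6 (1.65), and Fkbp14, a prolyl isomerase of the endoplasmic reticulum, from 5.10 and 4.66 to 19.6 and 18.9 (1.79). For the 2 last genes the hemin libraries were nearly equal. P4ha1, a prolyl hydroxylase subunit, rose by 1.04.

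Laminins and basement membrane genes rose for 10 of 12 tested and fell for 0, with a median of 1.18 (10 and 1 without the first hemin library). Lamb1 went from 6.09 and 6.12 to 20.2 and 20.3 FPKM and Lamc1 from 7.89 and 8.54 to 27.2 and 28.9 (log2 fold changes 1.58 and 1.66), both chains of widespread laminins and both even between the hemin libraries. Lamb2, another beta chain, rose by 1.74 and the proteoglycan perlecan, Hspg2, by 1.15. Of 25 tested matrix glycoproteins and proteoglycans outside the members, 21 rose and 0 fell (median 1.13), and without the first hemin library 18 rose and 2 fell. Among them Fbn2 rose from 3.05 and 3.01 to 6.84 and 10.8 FPKM (1.25), Fbln2, fibulin 2, by 1.24, Ecm1 by 1.42, and the small proteoglycan Aspn by 1.43 from 0.04 and 0.09 FPKM. Aspn reached an FPKM of 1 only in libraries with hemin, so its rise had to be seen for it to be tested. How many other genes of the matrix lists entered the test in this way was not counted.

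The matrix typical of the space between neurons did not rise as a group: 5 of 15 tested genes rose, 7 fell, and the median was -0.48 (5 and 8 without the first hemin library). Hapln1, a link protein of perineuronal nets, fell by 2.60 on the log2 scale, from 13.4 and 13.9 to 1.31 and 1.53 FPKM. Tnr, tenascin-R, fell by 2.24, from 14.3 and 15.3 to 1.76 and 3.05 FPKM, and Spock2, testican-2, by 1.69. Ptprz1, the receptor phosphatase from which phosphacan is made, rose by 0.86. So in the same libraries tenascin-C went up and tenascin-R went down, with no overlap between libraries with and without hemin for either.

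Proteases and their inhibitors were split, with 14 of 23 tested genes higher and 4 lower, and 17 higher without the first hemin library. Plat, the tissue plasminogen activator, rose from 11.0 and 13.3 to 46.7 and 53.2 FPKM (1.96). Timp3, a matrix-bound inhibitor, rose by 1.43 and Adamts1, a proteoglycan-cleaving protease, by 1.49. Among matrix receptors 17 of 20 rose and 1 fell. The fall was Sdc3, the neuronal syndecan, from 142 and 144 to 52.9 and 53.6 FPKM (-1.41), while Sdc4 rose from 6.27 and 5.47 to 46.2 and 27.7 (2.43), Sdc1 by 1.46 and the integrin chain Itgav by 1.39. Of the TGF-beta genes, whose pathway is a known inducer of collagen, 13 of 18 rose and 1 fell, with Tgfb2, a ligand, up by 1.21, Tgfbr1, a receptor, by 1.41, and the feedback inhibitors Smad7 and Skil by 2.28 and 1.49. All counts of these lists are from limma at an adjusted p under 0.05 and stand beside the same background of 38.7% higher and 22.6% lower.

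4-OI against DMSO asks what the itaconate derivative does alone. No member passed (0 of 38 in either direction, limma, with 0% of all tested genes), 0 members had an unadjusted p under 0.05, and all adjusted p-values were 1. Over all genes 115 had an unadjusted p under 0.05 for a rise and 64 for a fall. The median log2 fold change of the members was 0.07, from -0.13 for Col5a3 to 0.37 for Col11a2, with standard errors of 0.11 to 0.46. Both 4-OI libraries lay above both DMSO libraries for 18 of 55 members, 32.7% against 17.1% of all genes, and below for 4, 7.27% against 12.5%. Among the 18 were Col4a1, Col18a1, Thbs1 and Col5a1, and the largest of these differences was that of Col11a2.

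Hemin and 4-OI against hemin asks whether 4-OI altered the matrix response, with the same hemin libraries as in hemin against DMSO. No member passed (0 of 38 in either direction, limma, with 0% of all tested genes). The lowest adjusted p among the members was 0.556. At an unadjusted p under 0.05, 6 members were lower and 0 higher (all genes, 764 lower and 445 higher): Col9a3 (-0.74 ± 0.24), Dcn (-0.64 ± 0.22), Col1a1 (-0.60 ± 0.21), Col2a1 (-0.52 ± 0.16), Col8a2 (-0.46 ± 0.18) and Col5a1 (-0.37 ± 0.15, all SE). Both combined libraries lay below both hemin libraries for 28 of 55 members, 50.9% against 18.7% of all genes, and above for 1, Col4a4, 1.82% against 12.5%. The median of the 38 was -0.30, against -0.03 for all tested genes.

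That comparison turned on which hemin library stood for the group. Without the first hemin library the median of the members was -0.08 and 0 of 37 passed. Without the second it was -0.55 and 20 of 37 were lower, as were 2580 of the 13562 genes then tested. In those fits the lone hemin library is assumed to vary like the other groups. The fibroblast and meningeal marker sum without S100a6 stood at 2.71 and 2.86 times the DMSO mean in the hemin libraries and at 2.29 and 2.64 in the combined ones. The mural sum stood at 3.21 and 1.96 and then 1.96 and 1.88, and the astrocyte sum without Fabp7 at 5.43 and 2.3 and then 2.12 and 2.14. Their part in the difference was not tested.

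Hemin and 4-OI against 4-OI repeats the hemin comparison with group means that share no library with the first. Both comparisons take the spread of a gene from all 8 libraries, so their calls are not independent. Of the 38 tested members 29 rose and 1 fell, beside 33.3% and 24.2% of all genes (limma, adjusted p under 0.05), and the median was 0.80 against 0.13 for all tested genes. Of the 33 members that rose in hemin against DMSO, 28 rose here too, which is 84.8% of the first set and 96.6% of the second. Over all tested genes the shared rises were 4139, 77.8% of the first set and 90.5% of the second. The members that did not pass a second time were Col1a2, Col4a2, Col6a2, Col7a1 and Col8a2, and Col22a1 passed here, under the limits given above. Col1a2 and Col6a2 did pass when only the groups compared were fitted, at 0.74 and 0.655 (limma adjusted p = 0.00349 and 0.0118). That fit leaves out the spread between the hemin libraries. Both combined libraries lay above both 4-OI libraries for 41 of 55 members, 74.5% against 44% of all genes, and below for 3, 5.45% against 27.4%. The 29 became 27 with TPM, 25 after median-of-ratios scaling and 20 after quantile normalization. Leaving out the second combined library reduced the 29 to 19, with Timp1, Dcn, Postn, Lox, Col4a5 and Col4a6 among the calls lost. Of all calls here 57.9% were rises, 47.8% after median-of-ratios scaling and 47.2% after quantile normalization.

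The rises were smaller in the presence of 4-OI for 33 of 33 members, and for 3542 of the 5321 genes that rose over the whole table. Both sets were chosen by their rise in hemin against DMSO, which by itself favours a smaller second value. Over all 38 tested members the signed log2 fold change with hemin was lower with 4-OI for 36. That count includes Col11a2 (-0.222 and then -0.655) and Col6a1 (0.12 and then -0.282), whose changes were larger in size with 4-OI. Without the first hemin library the rises of the 33 were smaller for 28 of 32 and larger for Col3a1, Col5a3, Col6a2 and Col10a1, and without the second they were smaller for 31 of 32, all but Col23a1. Fn1 changed from 1.63 to 1.44, Thbs1 from 1.99 to 1.59, Col3a1 from 1.67 to 1.56 and Col10a1 from 1.38 to 1.31. Sparc went from 1.65 to 1.11, Col1a1 from 1.90 to 1.07, Col9a3 from 1.90 to 1.01, Col2a1 from 1.54 to 0.73 and Postn from 1.54 to 0.77. The difference itself, the interaction of hemin and 4-OI, passed for 0 of 38 members and 0% of all tested genes (limma), with a lowest adjusted p of 0.854, and 4 members (Col1a1, Col2a1, Col5a1 and Col9a3) were lower at an unadjusted p under 0.05, beside 454 of all genes. Without the first hemin library the members' median interaction was -0.18 instead of -0.40, and without the second it was -0.63. The medians of all tested genes in these fits were -0.036 and -0.049.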

How the data were processed

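RNA from 8 libraries of mouse primary cortical neuron cultures, 2 per group, was sequenced, and the authors deposited one table of FPKM values for 19417 genes. The submitters' processing notes name Bowtie2, RSEM and mm8, while versions, annotation and strand setting are not stated in the sources used here. Of the entries, 34.1% include transcripts marked as additional to the annotation. The reference available here is GRCm38, used only for promoter sequences, start sites, gene spans and transcript lengths.

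Values were tested as log2(FPKM + 1), which understates the change of low genes, with limma 3.58.1 in R 4.3.3 (a mean per group over all 8 libraries, eBayes with an intensity trend, 4 residual and 4.28 prior degrees of freedom). The filter kept genes that reached 1 FPKM in 2 or more libraries, 13746 in all, and p-values are two-sided, Benjamini-Hochberg adjusted over these, with a threshold of 0.05. Depth was estimated from the steps between low values. The depth and fragment length were those that put the largest share of them within 0.15 of a whole fragment, 69.5% to 80.2%. An even spread would give 30% at a setting fixed beforehand, and choosing the best setting raises the share by itself. The procedure was tested on simulated data. Tables and plots used Python 3.11.15, pandas 2.3.3, numpy 2.4.6 and matplotlib 3.10.9.

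The members and all lists were chosen with earlier results of these data known. Values per library were set for the 8 members with the highest mean, the 8 largest rises in hemin against DMSO with a mean of at least 2 FPKM in the higher group, all falls, any call in 4-OI against DMSO, hemin and 4-OI against hemin or the interaction, and the leading member of each role class; genes of the matrix lists are up to 4 with the lowest p, of which 1 is not reported here, and the cell type markers shown are the defining ones, with others named after their values were seen. The marker sums without S100a6, Fabp7, Pecam1 or Tubb3 and the counts of smaller rises without a hemin library were also chosen after seeing the data. Full values of Col1a2, Col2a1, Col6a2, Col10a1, Col11a2 and Lox, and those of Nt5dc1 and Syn1, were chosen after they were seen. As alternatives the pseudocount was set to 0.1, the filter dropped or raised to 5 FPKM, values rescaled (TPM, median of ratios, quantiles), the replicate number added as a block, the trend dropped, only the groups compared fitted, and each library left out.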

Additional observations from a re-analysis of the deposited data

How the results depend on the processing

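In hemin against DMSO the count of members higher was 33. The median log2 fold change of the members ran from 1.14 to 1.59 when single libraries were left out. The count was 21 of 23 tested with a filter at FPKM 5, where fewer genes are tested. With no filter it was 38 of 55, beside 6044 of all 19205 genes. It was 32 with TPM or median-of-ratios scaling and 27 after quantile normalization. Under quantile normalization 2 members, Col11a2 (-0.79) and Col25a1 (-0.67), were lower. In hemin and 4-OI against 4-OI the count higher was 29, 19 of 23 tested with a filter at FPKM 5, 27 with TPM, 25 after median-of-ratios scaling, 20 after quantile normalization, and 19 to 31 when single libraries were left out, and the count lower was 1, 0 with that filter and 0 to 1 without single libraries. In hemin and 4-OI against hemin the count lower ran from 0 to 20, and in the interaction from 0 to 16, when single libraries were left out. Both upper ends came from the fit without the second hemin library. There a lone hemin library stands for its group and is assumed to vary like the other groups. Genes over the whole table were also called lower in that fit, and none were in the main fit. The members' medians there were -0.55 and -0.63, against -0.035 and -0.049 for all tested genes. The cause was not tested.

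Direction changed only for members that had not passed in the main fit of that comparison. In other fits of hemin against DMSO, Col25a1 passed after quantile normalization (-0.672, limma adjusted p = 0.0204). Col22a1 passed without the intensity trend (0.366, limma adjusted p = 0.0378). In hemin against DMSO, Col6a1 gave -0.076 with median-of-ratios scaling and -0.161 after quantile normalization, Col26a1 gave -0.058 with TPM, -0.136 with median-of-ratios scaling and -0.24 after quantile normalization, and Col22a1 gave -0.212 with quantile normalization. When single libraries were left out, Col6a1 ranged from -0.171 to 0.411, Col26a1 from -0.131 to 0.245 and Col25a1 from -0.376 to 0.12, with the values of opposite sign to the reported ones coming from the fit without hemin replicate 1. In hemin and 4-OI against 4-OI, quantile normalization gave -0.328 for Col8a2 and -0.347 for Col25a1, and leaving out single libraries gave -0.22 to 0.195 for Col26a1 (0.072 without 4-OI replicate 1) and -0.032 to 0.23 for Col25a1.

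Libraries with equal replicate numbers showed no clear shared deviation: deviations of same-numbered libraries correlated between -0.09 and 0.05 over 6 pairs of groups. With 2 libraries per group this cannot exclude that same-numbered libraries were prepared together. With the replicate number as a block, 33 members were higher in hemin against DMSO and 29 in hemin and 4-OI against 4-OI, and no member's call changed in these comparisons. Depth limits the lowest members most: Col10a1 rests on about 3 fragments and Timp1 on about 6 in their lowest library.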
